A study of Arabidopsis thaliana with 12 samples.

Results

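Small heat shock proteins of the cytosol and the peroxisome were followed across 4 conditions in leaves of Arabidopsis thaliana, the thale cress. The 9 genes were taken by locus, from a list made with earlier results of these data known, so they are not a set chosen blind to them. Cytosolic class I was represented by HSP17.4 (AT3G46230), HSP17.6C (AT1G53540), HSP17.6B (AT2G29500), HSP17.8 (AT1G07400), AT1G59860 and HSP18.2 (AT5G59720). Cytosolic class II was represented by HSP17.6II (AT5G12020) and HSP17.6A (AT5G12030), and the peroxisome by HSP15.7 (AT5G37670). The list does not hold every cytosolic small heat shock protein. The members are 9 of the 32833 loci in the deposited table, and all 9 were tested. The plants were wild type of the accession Col-0, 30 days old, grown at 23 °C under light of 50 µmol m-2 s-1 for 12 h a day. They received high light of 600 µmol m-2 s-1 together with heat of 42 °C (the combination), the heat alone (heat), the high light alone (high light) or neither (control), each stress for 7 h. Every group has 3 libraries of poly(A)-selected leaf RNA, 12 in all. The design asks how leaves respond to each stress and whether the combination differs from the single stresses.

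Small heat shock proteins are chaperones that work without ATP: they form oligomers that hold unfolding proteins in a soluble state until HSP70 and HSP101, which do use ATP, can refold them. Their genes are transcribed by heat shock factors bound to heat shock elements, runs of alternating GAA and TTC blocks. In Arabidopsis the constitutive HSFA1 factors start this response, and HSFA2, itself a heat-induced gene, prolongs it. The cytosol holds class I and class II proteins, which form separate oligomers, and HSP15.7 is imported into peroxisomes, where photorespiration and fatty acid breakdown release hydrogen peroxide.

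All 9 genes consist of 1 exon, with coding sequences of 414 bases in HSP15.7 to 486 bases in HSP18.2 (RefSeq annotation of TAIR10.1, on which all coordinates here rest). The ends of the coding sequences show how close the members are to each other and what sets HSP15.7 apart. Each line gives the last 30 coding bases, with the last 3 codons before the stop codon in capitals, from HSP17.6C at chr1:19980954-19980983 (plus strand), HSP17.8 at chr1:2275592-2275621 (plus), AT1G59860 at chr1:22031912-22031941 (plus), HSP17.6II at chr5:3882409-3882438 (minus), HSP17.6A at chr5:3884214-3884243 (minus) and HSP15.7 at chr5:14969419-14969448 (plus).
HSP17.6C: gaggttaagtccattgatATCTCTGGTtaa
HSP17.8: caagttaagtctattgatATCTCTGGCtaa
AT1G59860: caagttaagtctattgatATCTCTGGCtaa
HSP17.6II: ccaaagacaattcaagttCAAGTTGCTtga
HSP17.6A: ccaaagactatacaagttCAAGTCGCTtga
HSP15.7: aggaatgttaatattactAGCAAGCTTtga
The capitals of HSP15.7 are the codons of a carboxy-terminal peroxisomal targeting signal, while HSP17.8 and AT1G59860 share all 30 bases. Over the whole coding sequence these last genes were 88.1% identical, with a longest shared run of 43 bases between their transcripts, and the class II pair HSP17.6II and HSP17.6A was 86.1% identical with a shared run of 33 bases. Other class I pairs ranged down to 67.5%, class I and class II members shared 51.1% to 55.3%, and HSP15.7 shared 48.7% to 53.7% with the others. How the authors' counting treated reads that fit more than 1 gene is not given, so values of HSP17.8 and AT1G59860, and of HSP17.6II and HSP17.6A, are uncertain where such reads could move between them. The same caution holds for other class I members. HSP17.6B and HSP17.8 shared a run of 32 bases, as did HSP17.6C and AT1G59860, and HSP17.4 and HSP17.6C, 85% identical, shared 29. The class II genes are also neighbours on chromosome 5, at chr5:3882231-3883111 and chr5:3883957-3884838, both on the minus strand.

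Because the 9 genes moved together, their promoters were searched for heat shock elements. A pair was GAANNTTC or TTCNNGAA and a triplet GAANNTTCNNGAA or TTCNNGAANNTTC, where N is any base, so that both strands are covered and a triplet holds 2 overlapping pairs. In the 250 bases before the annotated transcript start, a triplet occurred in 2 of 9 members, HSP17.4 and HSP17.6C, against 0.39% of 27443 promoters. A pair occurred in 4 of 9 members, against 16.2% of all promoters. Shown are the promoters of HSP17.4 (chr3:16984842-16985091, minus strand) with its 2 triplets, HSP17.6C (chr1:19980049-19980298, plus) with 1, and HSP15.7 (chr5:14968508-14968757, plus) with a single pair, all 5′ to 3′ with the matched GAA and TTC blocks in capitals.
HSP17.4: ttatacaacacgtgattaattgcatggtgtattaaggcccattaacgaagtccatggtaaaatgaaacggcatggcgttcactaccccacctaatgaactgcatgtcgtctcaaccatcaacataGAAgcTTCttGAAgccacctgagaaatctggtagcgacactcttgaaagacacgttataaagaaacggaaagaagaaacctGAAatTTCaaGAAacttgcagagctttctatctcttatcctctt
HSP17.6C: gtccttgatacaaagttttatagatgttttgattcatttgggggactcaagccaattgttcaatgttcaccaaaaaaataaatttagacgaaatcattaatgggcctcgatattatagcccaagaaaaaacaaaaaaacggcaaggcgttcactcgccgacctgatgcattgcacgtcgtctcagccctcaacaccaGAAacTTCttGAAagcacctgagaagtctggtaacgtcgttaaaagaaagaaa
HSP15.7: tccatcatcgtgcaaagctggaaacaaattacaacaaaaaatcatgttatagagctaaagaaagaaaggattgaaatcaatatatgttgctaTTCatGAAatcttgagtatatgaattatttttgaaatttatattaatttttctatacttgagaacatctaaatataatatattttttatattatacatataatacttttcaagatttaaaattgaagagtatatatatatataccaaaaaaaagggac
The pair nearest to the transcript start began 39 bases before it in HSP17.4, 48 bases before it in HSP17.6C and 158 bases before it in HSP15.7. Since annotated starts may be inexact, the 500 bases before each start codon were searched as well. There all 9 members held a pair, against 33.9% of 27443 such windows, and HSP17.4, HSP17.6C and HSP18.2 held a triplet, against 1.2%. A match of letters is a description and does not show that a factor binds.

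Recovered reads per library numbered 29814116 to 32892194 in the combination, 34688170 to 36938786 in heat, 33626361 to 36768410 in high light and 32799975 to 34206515 in control. Levels are normalised counts, reads divided by 1 size factor per library, and these factors were 0.5353 to 0.6048 in the combination, 1.048 to 1.527 in heat, 1.129 to 1.308 in high light and 1.171 to 1.269 in control. With library totals in place of these factors the median of all genes moved by -0.95 (log2) in the combination against control, -0.87 against heat, -0.90 against high light and -0.81 in the interaction. Genes then called higher and lower numbered 1827 and 12016 in the combination against control (5750 and 5726 with the deposited factors), 1578 and 11094 against heat (5388 and 5219), 1964 and 11758 against high light (5421 and 5654), and 1813 and 8805 in the interaction (4443 and 4484). TMM scaling moved those medians by -0.11 to -0.12. The leaf label was checked against marker genes. The 4 leaf markers, among them RCA for Rubisco activase, summed to at least 470250 in every library, while the 3 seed markers summed to at most 7.97, the flower markers to at most 33.5 and the root markers to at most 1928, nearly all of it PYK10. In whole leaves, fewer cells of a type and less RNA per cell cannot be told apart. The labels do not tell whether libraries of 1 group are from different plants, and the p-values cover no more than their spread, possibly a technical one. Heat library 1 stood low and heat library 3 high for every member, so the main tests of the members that rest on heat are given with and without heat library 1. Heat means of levels and shares include it.

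As a share of all reads, which uses no size factor, the 9 genes took 6.5%, 8.23% and 6.67% in the combination libraries, 0.6%, 1.82% and 3.72% in the heat libraries, 8.53e-04%, 0.00327% and 0.00968% in the high light libraries and 9.27e-04%, 0.00294% and 9.42e-04% in the control libraries. The means were 7.13% ± 0.955 in the combination, 2.05% ± 1.57 in heat, 0.0046% ± 0.00456 in high light and 0.0016% ± 0.00116 in control (SD, n = 3 each). The combination libraries lay above all heat libraries and these above all others, while high light and control libraries overlapped. Class I genes took 5.85% ± 0.641 of the reads in the combination, 1.86% ± 1.38 in heat, 0.00394% ± 0.00395 in high light and 0.00123% ± 9.56e-04 in control. HSP15.7 took 0.0653% ± 0.0241 in the combination, 0.00557% ± 0.00441 in heat, 2.10e-04% ± 1.04e-04 in high light and 2.34e-04% ± 2.05e-05 in control.

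**Figure D1:**
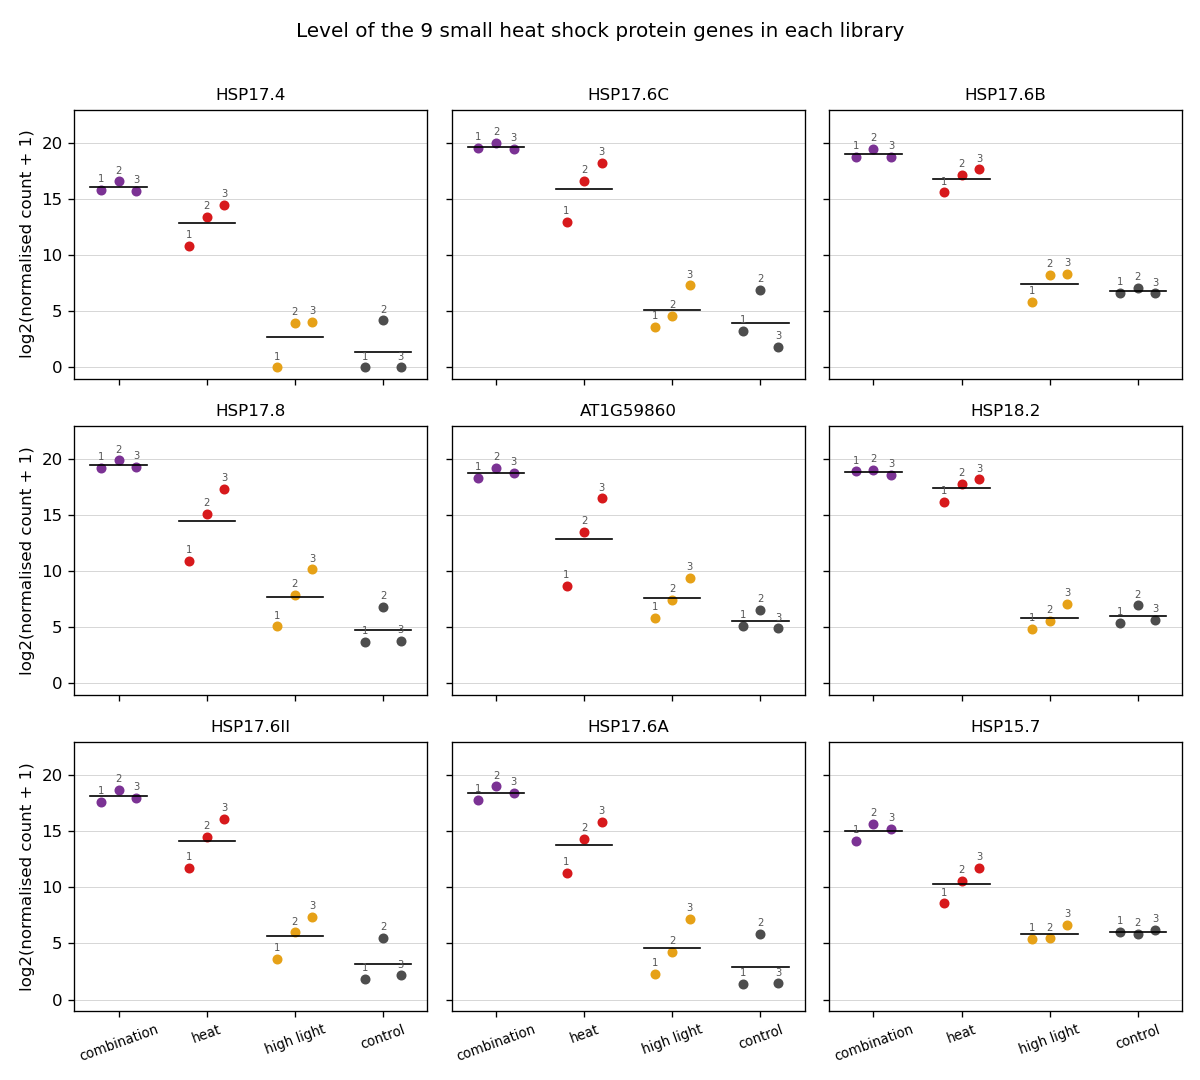
Level of each gene as log2(normalised count + 1) in the 12 libraries. Points are libraries with their replicate number and black bars are group means (n = 3). The combination libraries form the top group in all 9 panels, heat library 1 is the lowest and heat library 3 the highest of the heat libraries, and high light and control overlap.

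Of class I, HSP17.6C was listed at 777429, 1076045 and 738540 normalised counts in the combination, 8139, 103942 and 303845 in heat, 11, 22.9 and 157.6 in high light and 8.44, 121.4 and 2.56 in control. Its heat libraries were 37.3-fold apart and its combination libraries 1.46-fold. HSP17.4 stood at 59697, 98792 and 56196 in the combination, 1812, 11040 and 23155 in heat, 0, 14.5 and 15.9 in high light and 0, 17.3 and 0 in control. The only control reads of HSP17.4 were 22 in control library 2, so the size of its rises depends on the pseudocount: the heat change was 12.20 with a pseudocount of 0.5, 11.52 with 1 and 9.12 with 10. HSP17.4 also overlaps 2 genes on the other strand, AT3G46220 by 60 bases and the long non-coding RNA AT3G07365 by 453 bases. AT3G07365 is listed at 0 in all 12 libraries, and AT3G46220 at 3669, 5212 and 9697 in the combination, 660.6, 709.6 and 3125 in heat, 544.9, 494.8 and 433.9 in high light and 606.2, 608.5 and 562 in control. Whether the counting used strand is not given, so reads of HSP17.4 and of these partners cannot be told apart. Reads in the overlaps may also have gone uncounted, so the level of HSP17.4 and its rank among the members are uncertain.

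HSP17.8 was at 628754, 980079 and 662780 in the combination, 1935, 36347 and 168706 in heat, 32.9, 233.2 and 1156 in high light and 11.8, 112.7 and 12.8 in control. Its close copy AT1G59860 was at 338064, 619968 and 455741 in the combination, 411.2, 11887 and 93306 in heat, 56.4, 177.4 and 692.4 in high light and 34.6, 93.8 and 29 in control. Both were far apart within heat, 87.2-fold between heat libraries 1 and 3 for HSP17.8 and 226.9-fold for AT1G59860, whose heat library 1 fell below high light library 3. HSP17.6B stood at 451453, 731573 and 457231 in the combination, 50141, 144959 and 207440 in heat, 57.9, 302.8 and 317.9 in high light and 100.5, 134.0 and 95.7 in control. HSP18.2 stood at 493625, 538173 and 390268 in the combination, 76354, 224641 and 301579 in heat, 28.2, 45.9 and 137.2 in high light and 42.2, 123.7 and 51.2 in control. These last genes were the steadiest within heat, with heat library 3 at 4.14-fold heat library 1 for HSP17.6B and 3.95-fold for HSP18.2.

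Of class II, HSP17.6II was at 203961, 430064 and 263392 in the combination, 3391, 23883 and 71358 in heat, 11, 62.7 and 162.9 in high light and 2.53, 44.1 and 3.42 in control. HSP17.6A was at 230464, 530859 and 351888 in the combination, 2497, 20903 and 57668 in heat, 3.91, 18.4 and 144.3 in high light and 1.69, 56.8 and 1.71 in control. The class II genes changed order: HSP17.6A was above HSP17.6II in all 3 combination libraries and below it in all 3 heat libraries. In control their reads came mostly from control library 2, with 56 of HSP17.6II and 72 of HSP17.6A against 2 to 4 in each of the other control libraries. The peroxisomal HSP15.7 was at 18622, 50765 and 38684 in the combination, 381.1, 1530 and 3411 in heat, 42.3, 42.8 and 98.3 in high light and 65.9, 56 and 73.5 in control. Every other member was highest in control library 2 among the control libraries, for example HSP17.8 at 112.7 against 11.8 and 12.8. HSP15.7 was lowest there.

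Per kilobase of coding sequence, the order of the genes differed between the groups. Annotated transcripts run from 724 bases in HSP17.4 to 1056 bases in HSP17.6B, and close ranks may differ if that length is used. In the combination HSP17.6C led at 1822795 ± 389576 normalised counts per kilobase, ahead of HSP17.8, HSP17.6B, AT1G59860, HSP18.2, HSP17.6A and HSP17.6II, with HSP17.4 at 151936 ± 50206 and HSP15.7 last at 87013 ± 39217 (SD, n = 3). In heat HSP18.2 led at 413288 ± 235557, followed by HSP17.6C at 292494 ± 318305 and HSP17.6B at 290433 ± 171432, and HSP15.7 was last at 4285 ± 3695. In control HSP17.6B led at 238.2 ± 45.2 with HSP15.7 second at 157.2 ± 21.2, and HSP17.4 was last at 12.3 ± 21.3. Across libraries, the ranges of neighbours in these orders overlapped in all cases but HSP17.6II over HSP17.4 in the combination and HSP17.6B over HSP15.7 in control. Within single libraries the order was often steadier. HSP17.6C was above HSP17.8, and HSP17.4 above HSP15.7, in all 3 combination libraries, while AT1G59860 was above HSP18.2 in 2. In heat HSP17.4 was above HSP15.7 in all 3 libraries, HSP18.2 above HSP17.6C in 2 and HSP17.6C above HSP17.6B in 1. In control HSP15.7 was above HSP18.2 in 2. HSP15.7 was therefore listed second in control and last in heat and in the combination.

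Heat and the combination each raised all 9 genes, and high light alone raised none by the test. The test was limma's moderated test on log2(normalised count + 1), fitted to the 12 libraries and 19309 genes with a mean of at least 10, with a Benjamini-Hochberg adjusted p under 0.05 taken as a call, and changes are log2 differences ± SE. That filter uses all groups, and HSP17.4, whose control mean was 5.78, passed it through heat and the combination. In the combination against control 9 of 9 members were higher, where 29.8% of all tested genes were, with a median change of 14.68 against -0.02 for all genes. The changes ran from 8.98 ± 0.63 for HSP15.7 (adjusted p = 6.83e-07) up to 15.51 ± 1.39 for HSP17.6A, which HSP17.6C alone exceeded (adjusted p = 2.62e-06). The 9 members did not overlap control in any library, as was the case for 34% of all tested genes. Without control library 2, 5 members moved by over 1.5-fold, to between 15.77 and 17.16, and without control library 1 or 3, 3 members each lay between 13.98 and 14.78, all still called. With library totals as the scaling all 9 moved so far, to between 8.03 and 14.77. On recovered reads 5 members moved so far, to 13.52 to 14.24 with edgeR and 13.59 to 14.26 with DESeq2. These calls remained as well.

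In heat against control 9 of 9 were higher, where 24.6% of all tested genes were, with a median of 10.91 against -0.00 for all genes. HSP17.6C rose by 11.95 ± 1.38 (adjusted p = 3.66e-05), HSP17.4 by 11.52 ± 1.27 and HSP18.2 by 11.37 ± 0.59, while AT1G59860 rose by 7.37 ± 1.45 and HSP15.7 by 4.26 ± 0.63 (adjusted p = 1.89e-04). None of the 9 overlapped control in any library, and 30.4% of all tested genes were higher in this way. Without heat library 1 all 9 changes were larger, between 5.12 and 13.44, and without heat library 3, 7 members lay between 3.54 and 10.83. Without control library 2, 5 members lay between 10.74 and 13.42, and without control library 1 or 3, 3 members each lay between 10.17 and 10.87. On recovered reads AT1G59860 was at 9.38 with edgeR and 9.39 with DESeq2. HSP17.8, at 9.71 by limma, was at 10.55 and 10.56. All of these remained calls.

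In high light against control 0 of 9 members were called by limma, where 18.1% of all tested genes were called higher and 16.6% lower, and 0 had an unadjusted p under 0.05. The changes ran from -0.20 ± 0.63 for HSP15.7 (adjusted p = 0.843) to 2.94 ± 1.48 for HSP17.8 (adjusted p = 0.145), with HSP17.6II at 2.49 ± 1.18 (adjusted p = 0.123). Every member overlapped control, whereas 30.5% of all tested genes lay above it in every library. On recovered reads edgeR called 0 members and DESeq2 called 1, HSP17.8. With the replicate number as a block, by which control and high light libraries deviated together, HSP17.6II was called at 2.49 (adjusted p = 0.0388). The spread was wide in both groups, with HSP17.8 35.2-fold and HSP17.6A 36.9-fold higher in high light library 3 than in library 1, and HSP17.6A 33.6-fold higher in control library 2 than in control library 1. Without control library 2 HSP17.6II was called at 3.66, and without high light library 1 HSP17.6II at 3.52 and HSP17.6B (adjusted p = 0.0324) were called. Small changes turned direction as well: HSP18.2, at -0.19 with all libraries, was at 0.27 without control library 2 and 0.30 without high light library 1, and HSP15.7 was at 0.01 without high light library 1.

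**Figure D2:**
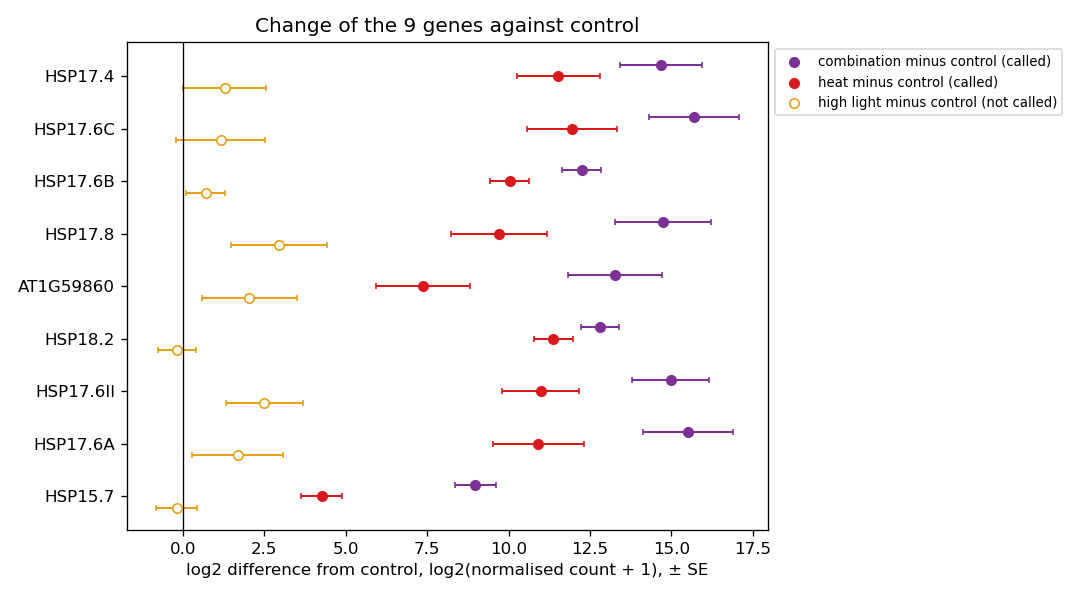
Change of each gene against control in the combination, heat and high light, as a log2 difference of log2(normalised count + 1) with its SE (12 libraries). Filled points passed an adjusted p of 0.05 and open points did not. The combination lies right of heat for all 9 genes, HSP15.7 has the smallest change in both, and the high light points lie between -0.20 and 2.94.

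Against high light, the combination was higher in 9 of 9 members, where 28.1% of all tested genes were, by 9.18 ± 0.63 for HSP15.7 to 14.54 ± 1.38 for HSP17.6C. Those 9 were without overlap, as were 31.6% of all tested genes. Heat was higher than high light in 9 of 9, where 24.5% of all tested genes were, by 4.46 ± 0.63 for HSP15.7 to 11.56 ± 0.59 for HSP18.2. Here 8 of 9 did not overlap, against 29.6% of all tested genes, the exception being AT1G59860 with 5.33 ± 1.45. The 2 comparisons share the high light libraries. Without high light library 1, 7 members moved by over 1.5-fold in each, to between 10.34 and 13.75 for the combination and between 4.45 and 10.01 for heat. Without high light library 3, 7 members lay between 12.14 and 15.62 for the combination and between 6.25 and 12.19 for heat, and without library 2 HSP17.4 alone moved so far, to 14.04 and 10.88. For heat against high light, leaving out heat library 1 put the 9 members between 5.32 and 12.28, and leaving out heat library 3 put 7 of them between 3.53 and 9.67. None of these calls ended.

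The combination exceeded heat alone in 8 of 9 members, where 27.9% of all tested genes were higher, with a median change of 3.99 against 0.00 for all genes. AT1G59860 differed by 5.89 ± 1.45 (adjusted p = 0.00441), HSP17.8 with 5.02 ± 1.48 (adjusted p = 0.0119), HSP15.7 with 4.72 ± 0.63 (adjusted p = 1.09e-04) and HSP17.6A with 4.60 ± 1.39 (adjusted p = 0.0139). HSP17.6II was higher by 3.99 ± 1.18, HSP17.6C by 3.74 ± 1.38, HSP17.4 by 3.16 ± 1.27 (adjusted p = 0.0497) and HSP17.6B by 2.22 ± 0.60. HSP18.2 was at 1.44 ± 0.59 and did not pass (adjusted p = 0.0525). All 9 members, HSP18.2 included, lay above every heat library in every combination library, as did 27.6% of all tested genes. In means of normalised counts the combination was 20.3-fold heat for HSP15.7, 13.4-fold for AT1G59860 and 2.36-fold for HSP18.2, and the lowest combination library exceeded the highest heat library by 5.46-fold for HSP15.7 and by 1.29-fold for HSP18.2.

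These differences depended on heat library 1. Without it 4 of 9 members were called: HSP15.7 at 3.86 (adjusted p = 1.87e-04), AT1G59860 at 3.78 (adjusted p = 0.00709), HSP17.8 at 3.24 (adjusted p = 0.0491) and HSP17.6B at 1.62 (adjusted p = 0.034). The others were at 3.34 for HSP17.6A, 2.79 for HSP17.6II, 2.26 for HSP17.6C, 2.11 for HSP17.4 and 0.85 for HSP18.2, with adjusted p of 0.0561 to 0.222. With combination library 2 left out as well, a choice made after seeing the data, the calls were HSP15.7 at 3.55 and AT1G59860 at 3.56. The calls of HSP17.4 and HSP17.6C also ended without heat library 2 (3.42 and 4.10) and without any 1 of the combination libraries (2.90 to 3.31 and 3.57 to 3.85), and that of HSP17.4 ended at an unchanged 3.16 without control library 1 or 3 or high light library 2 or 3 (adjusted p = 0.0509 to 0.0545). HSP18.2 was called at 1.84 without heat library 3 and at an unchanged 1.44 without control library 2 or high light library 1 or 3. Without heat library 3 the other 8 were called at 2.64 to 7.69. With library totals as the scaling, HSP15.7 stood at 3.85 (adjusted p = 4.71e-05), AT1G59860 at 5.02, HSP17.6B at 1.35 and HSP18.2 at 0.57, and the calls of HSP17.4 (2.29) and HSP17.6C (2.87) ended. The call of HSP17.4 also ended with a pseudocount of 0.5, no filter, TMM scaling, a robust variance and DESeq2 on recovered reads (adjusted p = 0.0572 to 0.203), and that of HSP17.6C with a robust variance, edgeR and DESeq2 (0.0582 to 0.0971). On recovered reads AT1G59860 was at 3.74 with edgeR and with DESeq2 (adjusted p = 0.0317 and 0.00284), below HSP15.7 at 4.34 and HSP17.6A at 3.78, so the order of the differences depends on the test. The call of HSP17.8 ended with edgeR (3.46, adjusted p = 0.0521), while HSP18.2 was called with a pseudocount of 10 (1.44, adjusted p = 0.0382) and upper-quartile scaling (1.45, adjusted p = 0.0474). As a share of all reads HSP18.2 was at 1%, 0.876% and 0.762% in the combination and 0.316%, 0.707% and 0.911% in heat, so that here its libraries overlapped.

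The make-up of the family's reads differed between heat and the combination, and this measure uses no size factor. HSP18.2 supplied 15.4%, 10.6% and 11.4% of the reads of the 9 genes in the combination libraries and 52.6%, 38.8% and 24.5% in the heat libraries. HSP17.8 supplied 19.6%, 19.4% and 19.4% in the combination and 1.33%, 6.28% and 13.7% in heat. AT1G59860 supplied 10.6%, 12.3% and 13.3% in the combination and 0.283%, 2.05% and 7.58% in heat. The shares of these 3 genes did not overlap between combination and heat, and heat library 3, the heat library with most reads of the family, was the nearest to the combination in each. Class II genes made up 16.9% ± 2.9 in the combination, 7.43% ± 3.22 in heat, 8.52% ± 2.29 in high light and 5.58% ± 6.66 in control, again without overlap between combination and heat. HSP15.7 made up 0.582%, 1% and 1.13% in the combination libraries and 0.263%, 0.264% and 0.277% in the heat libraries, against 8.47% ± 7.72 (SD, n = 3) in high light and 24.6%, 7.37% and 27.2% in control. Its heat share was thus nearly the same in 3 libraries whose summed share of all reads ran from 0.6% to 3.72%. An exact permutation test of 3 libraries against 3 cannot go below p = 0.1 (two-sided), so these shares are given as descriptions.

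**Figure D3:**
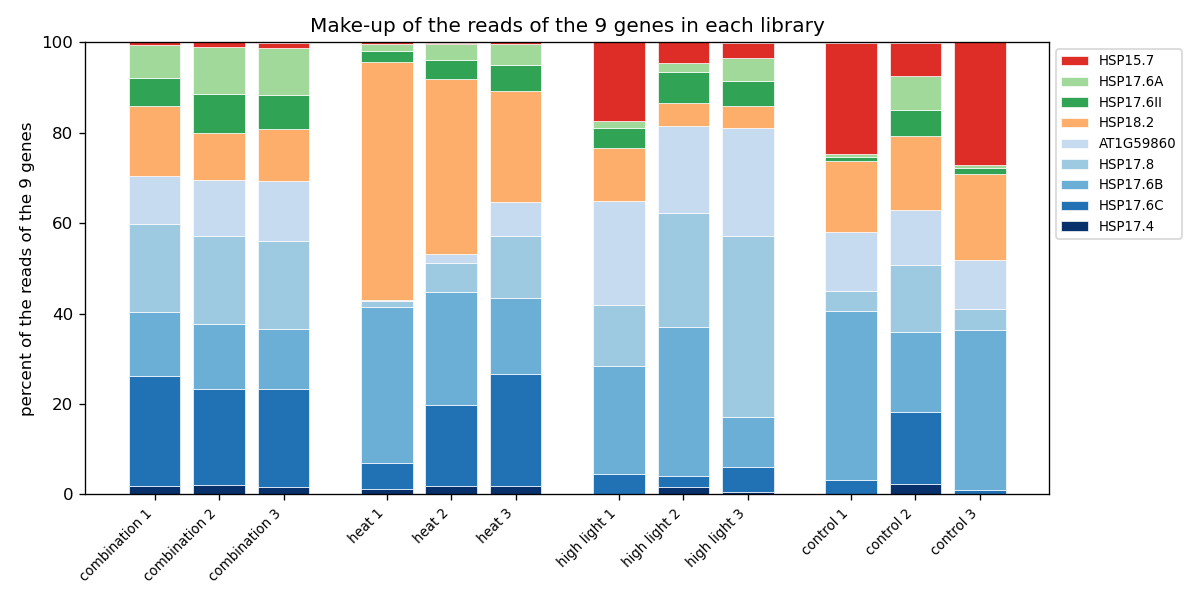
Percent of the reads of the 9 genes that each gene supplied in each library, stacked to 100. HSP18.2 (orange) lies between 10.6% and 15.4% in the combination and stands at 52.6%, 38.8% and 24.5% in the heat libraries. Control and high light bars rest on few reads.

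Whether the combination went beyond the sum of both single stresses on the log2 scale was asked with the interaction, the combination minus high light minus heat plus control. HSP15.7 was the 1 member called, at 4.92 ± 0.89 (adjusted p = 8.78e-04), where 23% of all tested genes were called higher. The other 8 had positive values that did not pass, lowest for HSP17.6II (adjusted p = 0.482) and up to 3.85 ± 2.05 for AT1G59860 (adjusted p = 0.142), with SEs of 0.83 to 2.09. The median of the 9 was 2.08, against -0.01 for all genes. It was 1.04 without heat library 1, 1.17 without control library 2 and 1.15 without high light library 1, and 3.52 without heat library 3 and 3.31 without high light library 3. With library totals it was 1.25, with edgeR 1.29 and with DESeq2 1.28. HSP15.7 stayed called without heat library 1 (4.06) and heat library 3 (5.64), without both heat library 1 and combination library 2 (3.75), with library totals (4.10) and with edgeR and DESeq2 on recovered reads (4.44 each). Single libraries added calls: AT1G59860 was called without heat library 3 at 5.65 (adjusted p = 0.0131) and HSP18.2 without high light library 3 at 2.27 (adjusted p = 0.0281). Whether HSP15.7 differed from the other members in this value was not tested.

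**Figure D4:**
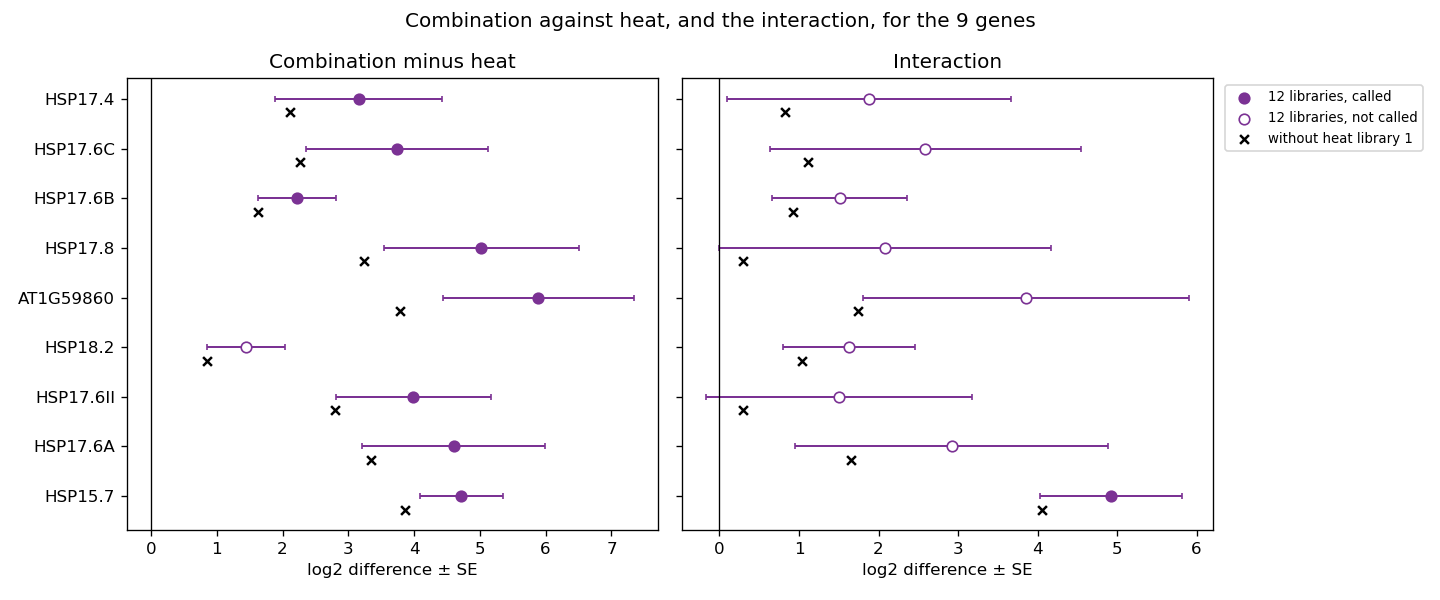
Combination minus heat (left) and the interaction (right) for each gene, as log2 differences with SE. Filled points were called, open points were not, and crosses give the value without heat library 1. HSP15.7 has the largest interaction, 4.92, with 4.06 without heat library 1, and HSP18.2 the smallest difference from heat, 1.44.

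The means of the regulators HSFA2 and MBF1C were highest in the combination, followed by heat. HSFA2, the heat-induced heat shock factor, was at 252386, 457851 and 427106 in the combination, 519.9, 9332 and 78546 in heat, 129.2, 1383 and 4719 in high light and 16.9, 63.8 and 16.2 in control. MBF1C, a transcriptional coactivator of the heat response, was at 106619, 198805 and 150206 in the combination, 1752, 9304 and 29072 in heat, 1037, 1015 and 1864 in high light and 135.9, 111.9 and 114.5 in control. Both shared with all 9 members a heat library 1 below heat library 2 below heat library 3, an order seen in 20.7% of tested genes, and its part in the differences from heat was not tested. In high light, where 0 of 9 members were called, HSFA2 rose by 5.13 ± 1.51 (adjusted p = 0.0188) and MBF1C by 3.37 ± 0.71 (adjusted p = 0.00254). Against control HSFA2 rose by 13.72 ± 1.51 in the combination and by 8.06 ± 1.51 in heat, and MBF1C by 10.24 ± 0.71 and 6.01 ± 0.71. Heat was not called above high light for HSFA2, at 2.94 (adjusted p = 0.124), but was without heat library 1, at 4.84 (adjusted p = 0.00673). For MBF1C it was called at 2.64 (adjusted p = 0.00833), and at 3.71 without heat library 1. Heat library 1 lay below high light libraries 2 and 3 for HSFA2 and below high light library 3 for MBF1C. The high light call of HSFA2 ended without control library 1 or 3 or high light library 2 or 3, and without any 1 of these 6 libraries its value lay between 3.97 and 6.56. Its heat change lay between 6.34 and 9.96 without control library 2, heat library 1 or heat library 3, that of MBF1C between 5.06 and 7.08 without heat library 1 or 3, and that of HSFA2 in the combination was 14.35 without control library 2. Their interaction values, 0.53 ± 2.14 for HSFA2 and 0.87 ± 1.00 for MBF1C, did not pass, and without heat library 1 they were -1.37 and -0.21 (adjusted p = 0.524 and 0.786). Of the constitutive factors, HSFA1E rose by 2.29 ± 0.35, HSFA1A by 1.12 ± 0.19 and HSFA1D by 0.64 ± 0.19 in the combination, and HSFA1B fell by 0.75 ± 0.19. Without control library 3 HSFA1D was at 0.52 and not called (adjusted p = 0.0556). Among all 17 tested heat shock factors of 21 listed, 10 were higher and 4 lower in the combination, 11 higher and 1 lower in heat, and 3 higher and 3 lower in high light. Of all tested genes 29.8% were higher and 29.7% lower in the combination, 24.6% and 24.8% in heat and 18.1% and 16.6% in high light, so with all libraries the factors' counts in high light were near those of all genes. Without heat library 1, 10 factors were higher and 1 lower in heat. In high light 5 were then higher and 4 lower, where 38.6% of all tested genes were called in either direction.

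Other chaperones rose as well. HSP101, the disaggregase that works with small heat shock proteins, was at 463511, 1461293 and 997091 in the combination, 2325, 36624 and 231174 in heat, 259.1, 1058 and 3323 in high light and 269.3, 334.2 and 242.6 in control. Its changes against control were 11.61 ± 1.28 in the combination, 6.59 ± 1.28 in heat and 1.79 ± 1.28 in high light, the last not called (adjusted p = 0.308). Without heat library 1 or 3 its heat change lay between 5.04 and 8.36. Of HSP101 and 5 cytosolic HSP70 genes, 6 of 6 were higher in the combination, 5 in heat and 3 in high light, led by the HSP70 gene AT3G12580 with 13.40 ± 0.93, 9.62 ± 0.93 and 4.73 ± 0.93. Its heat change lay between 8.67 and 10.70 without heat library 1 or 3, and its high light change was 5.70 without high light library 1. Of 5 small heat shock protein genes of organelles, 5 were higher in the combination and in heat and 1, AT5G51440, in high light by 5.53 ± 1.15, between 4.52 and 6.90 without control library 1 or 2 or high light library 1 or 2. The mitochondrial HSP23.6-MITO (AT4G25200) had the largest of these changes in the combination, 15.35 ± 1.24, and lay between 14.61 and 16.69 with 1 control library left out. Of 4 further genes of the family, 4 were higher in the combination, 3 in heat and 1 in high light, and AT1G54050 rose most, by 9.74 ± 1.00 in the combination. Of all tested genes 29.8% were higher in the combination, 24.6% in heat and 18.1% in high light. The 1 high light call in each of the last 2 lists was near that share. Without heat library 1, HSP101 and the HSP70 genes had 6 calls in heat and 4 in high light, and the counts of the other lists there were unchanged. The median change in the combination was 14.81 for the organelle list, 6.44 for the 4 further genes and 14.68 for the 9 members.

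For the peroxisome, 10 genes of protein import and matrix enzymes were read beside HSP15.7. In the combination 7 of 10 were higher and 1 lower than in control, in heat 6 and 1 (6 and 0 without heat library 1), and in high light 2 and 1, the last near the 18.1% higher and 16.6% lower of all tested genes. CAT2, the leaf catalase that removes hydrogen peroxide, rose most, by 4.80 ± 0.52, and was at 157590, 121368 and 147300 in the combination, 11489, 52353 and 81283 in heat, 21468, 30368 and 24989 in high light and 4191, 6006 and 5135 in control. In the interaction 3 of the 10 were higher and 2 lower, where 23% and 23.2% of all tested genes were, with a median of 0.03 over the list and -0.21 without heat library 1. CAT2 was at -0.38 ± 0.74 there and was not called, but without heat library 1 it was called lower at -1.21 (adjusted p = 0.00974). As normalised counts its heat libraries overlapped those of high light, unlike those of HSP15.7. PEX5, the receptor that imports proteins with the signal found at the end of HSP15.7, rose by 1.26 ± 0.24 in the combination and had an interaction of 0.05 ± 0.35, not called, and of -0.30 without heat library 1 (adjusted p = 0.247).

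Among the members, the correlation of log2(normalised count + 1) over the 12 libraries ran from 0.907 between AT1G59860 and HSP18.2 to 0.997 between HSP17.6II and HSP17.6A (Pearson's r, 36 pairs). The libraries fall into groups, so such values mostly restate the group differences and are descriptions. The other genes most like the mean of the 9 were HSP23.6-MITO (r = 0.994), AT1G66500 (0.988), HSP70T-2 (0.987), AT4G01280 (0.987) and AT5G48570, an FKBP-type peptidyl-prolyl isomerase (0.987). HSP23.6-MITO averaged 430139 in the combination, 50354 in heat, 63.6 in high light and 23 in control. Most like HSP15.7 alone were AT1G67365, annotated as other RNA (r = 0.995), the precursor locus MIR156h (0.994), and BIL4, of the Bax inhibitor family (0.993). BIL4 averaged 9455 in the combination, 2653 in heat, 655.0 in high light and 599.0 in control, and MIR156h, with an average of 57.8 in the combination, 5.31 in heat, 0.295 in high light and 0 in control, rests on few reads.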

How the data were processed

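Leaf RNA was extracted with Trizol, cleaned on a column, selected for poly(A) and made into TruSeq libraries, per the labels' protocols. The submitters' processing notes name FastQC 0.11.7, the aligner STAR 2.4.0.1, the build TAIR10 and, for normalisation, DESeq2 1.20.0. The counting tool, its strand setting, its treatment of reads that fit several genes and the annotation release are not given in the sources used here. The authors deposited signal values, in which each library's read counts stand divided by its own size factor. Each library's values divided by its smallest step gave whole reads for 100% of values (within 0.001).

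Tests used limma 3.58.1 (limma-trend, R 4.3.3) on log2(value + 1), all 12 libraries, 1 mean per group, 7 comparisons, two-sided, adjusted by Benjamini-Hochberg over 19309 genes. They were also run on simulated data, with changes planted in a small part of the genes and the spread of the control libraries. Those changes were far smaller than the members' changes in heat and the combination. The simulation therefore does not cover the members or the spread within heat. Count tests of the recovered reads, an alternative, used DESeq2 1.42.0 and edgeR 4.0.16. Other alternatives were pseudocounts of 0.5 and 10, no filter, a mean of at least 50, TMM, upper-quartile and library-total scaling, a robust variance, the replicate number as a block, a fit to the compared groups alone and each library left out. Changes of genes with few reads depend on the pseudocount and may lie above or below those of the count tests. In the combination against control HSP17.4 was at 14.68, with 13.52 by edgeR and 13.59 by DESeq2. In heat against control AT1G59860 was at 7.37, with 9.38 by edgeR and 9.39 by DESeq2. Counting error is only part of the spread. No 2 libraries of a group held identical values. Same-numbered libraries deviated together, by an r over 0.1, in all 3 pairs of high light with control (r = 0.157 to 0.307) and of heat with high light (r = 0.147 to 0.152), but not in every pair of the other comparisons. This link comes from the data and not from the labels.

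The members and lists were chosen with earlier results of these data known. Beside the 9 members, named were HSP101, HSFA2, MBF1C, the 4 HSFA1 genes, from each list the called gene with the largest change in the combination against control, and the 5 and 3 loci most correlated with the members' mean and with HSP15.7. Genes named outside this rule (AT3G46220, AT3G07365, AT5G51440, PEX5) were chosen after their values were seen. The marker lists' genes under that rule were RCA (2.41), AG (1.95) and PYK10 (-1.90), and no seed marker was tested. Names are those of the RefSeq table of TAIR10.1. Sequences, identities and motifs came from that genome (Biopython 1.88, Python 3.11.15), and figures from matplotlib 3.10.9.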

Additional observations from a re-analysis of the deposited data

Results flagged for a closer look

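The interaction of HSP15.7 drew attention because the effect of heat differed with the light: added to high light, heat changed it by 9.18 ± 0.63 (log2), and added to control by 4.26 ± 0.63, a difference of 4.92 ± 0.89 (limma, adjusted p = 8.78e-04). All 3 combination libraries lay above all 3 heat libraries. What underlies it was not tested.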

How the results depend on the processing

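Of the results on single members and shares, 1657 stayed the same, 33 calls ended, 15 values became calls, 4 turned sign and 1 share moved. For a change, the same means that direction and side of the threshold were kept. For a share, it means a group mean that moved by less than 1 SD. Leaving out 1 of 3 libraries cannot move a mean that far, so for shares this label says little. With only the compared groups, all genes called in high light against control numbered 10300 in place of 6701. Members called in high light against control (0) numbered 1 with DESeq2 and 0 to 2 with 1 library left out. In the combination against heat (8) they numbered 4 to 9 with 1 library left out and 2 without both heat library 1 and combination library 2. In the interaction (1) they numbered 2 with a pseudocount of 10, which added HSP17.4 at 2.75, and 1 to 2 with 1 library left out. Values that turned sign were HSP18.2 in high light (-0.19, and -0.83 to 0.30 with 1 library left out, 0.27 without control library 2), HSP15.7 in high light (-0.20, and -0.59 to 0.01 with 1 library left out) and HSP17.6II in the interaction (-0.00 without both heat library 1 and combination library 2). The cause was not tested beyond the smaller number of libraries.

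By a correlation over 0.1, pairing by replicate number held in all 3 pairs of high light with control and of heat with high light, but not in the other comparisons: 7 of 18 correlations of same-numbered deviations were over 0.1. Those of control with the combination were all positive (0.107, 0.067 and 0.0567), while those of high light with the combination were 0.0044, -0.0305 and -0.0757. A library correlated best with its own number in 21 of 36 cases, and 1 of 12 libraries did so in every other group. Each case is a choice among 3 libraries, so part of these matches would arise without any pairing. With the replicate block, 1 member was called in high light against control, HSP17.6II at 2.49 (adjusted p = 0.0388), and HSP18.2 was called in the combination against heat at 1.44 (adjusted p = 0.0259); no other call of a member changed. Depth limits the control and high light values, where a member had 0 to 170 reads in a control library and 0 to 1306 in a high light library.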
